A study of Mus musculus with 21 samples.

Results

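The 52 genes described here encode proteins that carry a cell through mitosis. They are 52 of the 55487 genes in the deposited tables and were taken by gene symbol from a fixed list. That list was chosen with earlier results of these data known. All 52 passed the filter on low counts in skin, where 19101 genes were tested, in inguinal skin-draining lymph nodes (SDLN, called nodes below), where 16173 were tested, and over both tissues together. Their change in lesional skin is set here against their change with UVB in the nodes of each genotype. RNA-seq libraries came from BALB/c wild-type (WT) mice and from mice of that background carrying an extra *Ifnk* gene under the keratin 14 promoter (Ifnk TG), which is active in basal keratinocytes. *Ifnk* encodes the type I interferon IFN-κ. Skin was taken at 12 months of age, without UVB, from WT mice (3 libraries), from Ifnk TG skin free of lesions (nonlesional, NL, 2 libraries) and from lesions of Ifnk TG mice (lesional, L, 4 libraries). Nodes came from 4 groups of 3 libraries, WT and Ifnk TG, each without UVB or after 250 mJ/cm2 of UVB on 3 days a week for 2 weeks followed by 2 weeks of observation. The nodes were passed through a strainer, so that RNA came from the mixed cells of the node. All libraries are given as batch 1. The labels name no mouse, sex or body site for a library and do not say that libraries of a group are separate mice, so the p-values measure the spread between these libraries. The transgene's own symbol, *Ifnk*, had 0 counts in each WT skin library, 6 and 0 in NL, 14, 11, 5 and 8 in L, and 0 in every node library. Whether the transgene's transcript is counted under this symbol was not tested.

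Mitosis begins when cyclin-bound Cdk1 is switched on by Cdc25 phosphatases. Kinetochores assemble on the centromeres and attach to spindle microtubules, the spindle checkpoint holds anaphase until every chromosome is attached, and the anaphase-promoting complex then releases the sister chromatids before cytokinesis divides the cell. FoxM1 and B-Myb drive the transcription of most of these genes late in the cell cycle. In skin, dividing cells are found in the basal epidermis and in the matrix of growing hair follicles, and in lymph nodes among activated lymphocytes.

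Many promoters of such genes carry a cell-cycle homology region (CHR, letters TTTGAA) and CCAAT boxes (letters CCAAT). Promoter windows of RefSeq (GRCm38.p6, from 250 bases before to 50 after the start of transcription) were on hand for 42 of the 52 genes. Searched on both strands, a CHR was found in the windows of 32 of the 42 genes (76.2%), against 18.5% of all 17492 protein-coding genes with a window. A CCAAT box was found in 31 (73.8%, against 42.3%), and both motifs in 27 (64.3%, against 7.40%). Among the lists of related genes used below, the 46 further mitosis genes with a window held a CHR in 23, a CCAAT box in 30 (65.2%) and both in 17 (37.0%), and the 32 S phase genes a CHR in 12.5%, a CCAAT box in 65.6% and both in 9.38%. These are counts of letters and not measured binding. For 28 of the 42 genes the 30 bases after the start site were found in a GENCODE transcript of the gene. The start sites of the others were not matched in this way. The 200 bases before the start site are shown for 6 genes to which the results return, *Mybl2* with the largest rise in lesional skin, *Cdc20* with the highest level per kilobase there, *Top2a*, *Mki67* and *Kif11*, which are among the most abundant members, and *Cdc25b*, which rose least. Capitals mark each CHR (TTTGAA, or TTCAAA where it lies on the other strand) and CCAAT box (CCAAT, or ATTGG). Coordinates are GRCm38.
Mybl2, chr2:163054435-163054634, plus strand: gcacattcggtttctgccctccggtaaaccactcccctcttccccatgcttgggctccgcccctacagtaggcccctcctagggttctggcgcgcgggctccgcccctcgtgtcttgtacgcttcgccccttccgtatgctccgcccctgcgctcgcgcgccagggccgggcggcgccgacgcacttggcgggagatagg
Cdc20, chr4:118437344-118437543, minus strand: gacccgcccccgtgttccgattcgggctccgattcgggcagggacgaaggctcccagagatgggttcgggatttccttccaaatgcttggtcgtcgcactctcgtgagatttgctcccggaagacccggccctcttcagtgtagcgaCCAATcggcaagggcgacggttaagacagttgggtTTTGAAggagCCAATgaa
Top2a, chr11:99024190-99024389, minus strand: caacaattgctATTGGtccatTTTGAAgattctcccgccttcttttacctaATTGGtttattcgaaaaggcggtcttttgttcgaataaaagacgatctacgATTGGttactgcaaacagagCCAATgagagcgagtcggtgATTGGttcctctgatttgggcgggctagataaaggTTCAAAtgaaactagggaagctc
Mki67, chr7:135716380-135716579, minus strand: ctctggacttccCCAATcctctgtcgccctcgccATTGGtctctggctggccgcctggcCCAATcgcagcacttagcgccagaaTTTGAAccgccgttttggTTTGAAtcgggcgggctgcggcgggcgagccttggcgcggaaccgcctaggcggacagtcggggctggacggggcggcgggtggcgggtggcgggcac
Kif11, chr19:37376182-37376381, plus strand: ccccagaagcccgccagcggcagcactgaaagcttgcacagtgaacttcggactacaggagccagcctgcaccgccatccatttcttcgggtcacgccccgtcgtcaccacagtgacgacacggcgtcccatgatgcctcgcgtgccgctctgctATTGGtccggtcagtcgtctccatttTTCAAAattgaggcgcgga
Cdc25b, chr2:131186748-131186947, plus strand: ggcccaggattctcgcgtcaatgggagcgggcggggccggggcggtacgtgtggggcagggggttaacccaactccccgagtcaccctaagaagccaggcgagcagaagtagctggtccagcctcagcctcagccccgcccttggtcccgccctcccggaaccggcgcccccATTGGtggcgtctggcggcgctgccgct
The *Mybl2* stretch holds neither motif and the *Cdc25b* stretch a single CCAAT box, while the *Top2a* stretch holds 2 CHR and 5 CCAAT matches and the *Mki67* stretch 2 and 3. No motif in these letters says only that they are not in this window.

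Taken over all 52 genes, lesional skin stood apart from the other skin, and nodes after UVB stood above untreated nodes by a smaller step. The level of the set in a library is given here as the mean over genes of log2(CPM + 0.5), where CPM is the count relative to the TMM-scaled library size, as edgeR scales it, minus the mean over the libraries of that tissue. It was -1.32, -1.19 and -0.86 in WT skin, -0.67 and -0.72 in NL skin, and 0.89, 0.81, 1.42 and 1.64 in L skin. Neither the WT nor the NL libraries overlapped with L. In nodes it was -0.24, -0.19 and -0.61 in WT without UVB and 0.81, 0.44 and 0.20 in WT with UVB, which did not overlap, and -0.26, -0.75 and 0.04 in TG without UVB and 0.50, -0.20 and 0.26 in TG with UVB, which did. Bulk RNA cannot tell more dividing cells from more of these transcripts in each cell.

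**Figure D1:**
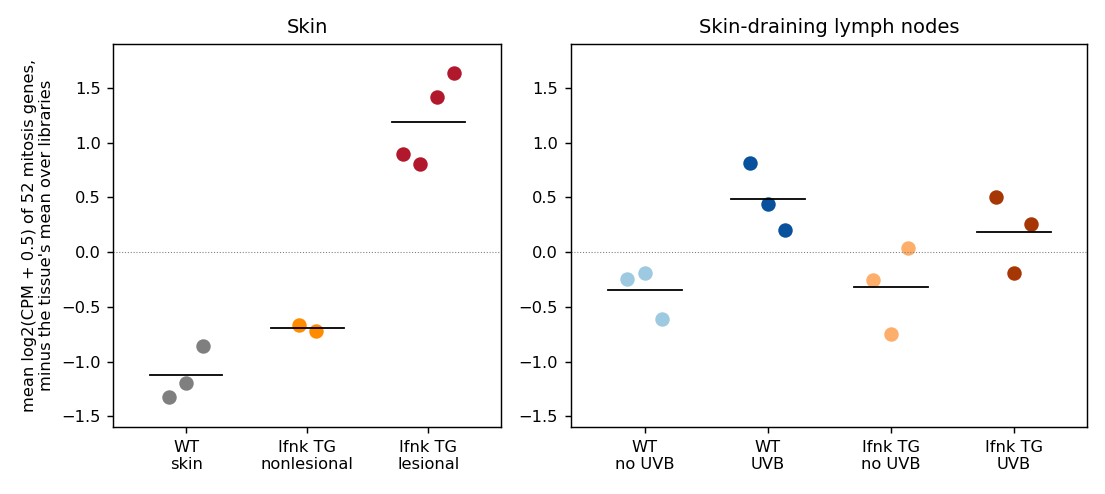
Level of the 52 mitosis genes in each library (vertical axis, mean log2(CPM + 0.5) minus the mean over the libraries of that tissue) by group, for skin at left and skin-draining lymph nodes at right. Each point is a library and each bar a group mean. The 4 lesional libraries lie between 0.81 and 1.64, above every other skin library, and the node groups with and without UVB lie closer together.

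Per kilobase of exon, the median gene of the set was at 0.597 to 0.837 CPM in WT skin, 0.904 to 1.03 in NL skin and 3.04 to 5.04 in L skin. In untreated nodes it was at 0.769 to 1.46 CPM per kilobase, and after UVB at 1.25 to 2.72. *Cdc25b* had the highest level per kilobase in all WT and NL skin and node libraries, and *Cdc20* in each L library. The summed level of the 52 genes was 190 to 272 CPM in WT, 308 to 316 in NL and 854 to 1610 in L skin. Skin libraries held 40499078 to 56511276 counts and node libraries 27599809 to 36428435. The depth left every gene with at least 12 counts in each WT skin library and at least 10 in each node library, and the lowest count, 4, was that of *Ska1* in NL library 3.

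Against WT skin, each of the 52 genes was higher in L skin at an adjusted p under 0.05 in edgeR's quasi-likelihood test. Of all 19101 tested genes 23.0% were called higher and 20.2% lower in this comparison. The log2 fold changes of the 52 genes ran from 0.92 (*Cdc25b*, 1.89-fold) to 4.24 (*Mybl2*, 18.9-fold), with a median of 2.75 (6.72-fold), where the median over all tested genes was 0.06. Adjusted p ran from 4.71e-05 to 0.00735. In all 52 every L library was above every WT library, which held for 26.0% of all tested genes. The size of the rise varied between lesions: L libraries 6 and 7 were both above libraries 4 and 5 in 48 of the 52 genes.

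Both transcription factors of the mitotic programme rose in L skin. *Foxm1* (GRCm38 chromosome 6, 128362967 to 128376146, plus strand) encodes the forkhead factor that activates late cell-cycle genes. It was at 2.74, 2.23 and 4.06 CPM in WT, 4.32 and 4.46 in NL and 11.2, 10.9, 18.5 and 20.7 in L skin (log2 fold change 2.35 ± 0.31 SE, adjusted p = 0.000668). *Mybl2* encodes B-Myb, a partner in the complex that switches on mitotic genes, and was at 0.502, 0.855 and 1.01 CPM in WT, 1.87 and 1.52 in NL and 12.3, 15.6, 13.2 and 18.6 in L skin (log2 fold change 4.24 ± 0.29 SE, adjusted p = 6.03e-05). Both were ordered WT, NL, L without overlap.

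The 7 cyclins, Cdk1 and its activators were called higher in L skin (7 of 7), with log2 fold changes from 0.92 to 3.06 and a median of 3.03. *Ccna2*, cyclin A2, was at 4.56, 4.99 and 7.86 CPM in WT, 8.14 and 7.9 in NL and 39.9, 35.1, 50.9 and 67.2 in L skin (log2 fold change 3.06 ± 0.29 SE, adjusted p = 0.000178). *Cdca3*, a protein that helps to trigger the loss of the mitotic brake Wee1, had the lowest p of the set and was at 2.28, 2.52 and 2.4 CPM in WT, 2.77 and 2.48 in NL and 12.5, 12.3, 13.1 and 13.1 in L skin (log2 fold change 2.41 ± 0.14 SE, adjusted p = 4.71e-05). WT and NL skin overlapped in *Cdca3*, and its 4 L libraries lay within 12.3 to 13.1 CPM. *Cdc25b*, the phosphatase that starts Cdk1 activation, was the exception in size and was at 19, 18.1 and 18.4 CPM in WT, 33.5 and 29.2 in NL and 36.5, 38.5, 35.3 and 29.8 in L skin (log2 fold change 0.92 ± 0.11 SE, adjusted p = 0.000464). For *Cdc25b* the NL libraries were already above WT and overlapped with L. The other members of the group, *Cdk1*, *Ccnb1*, *Ccnb2* and *Cdc25c*, had log2 fold changes of 2.94 to 3.06. The annotation holds pseudogenes named after *Ccnb1* and *Ccnb2* (*Ccnb1-ps* and *Ccnb2-ps*), and of *Kif4* among the motors, with which reads could be shared.

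The mitotic kinases and the chromosomal passenger complex, which corrects faulty attachments and guides cytokinesis, were called higher in 6 of 6. *Incenp*, the scaffold of the complex, was at 6.39, 9.16 and 10.7 CPM in WT, 8.83 and 9.91 in NL and 25.5, 20.2, 32.3 and 35.6 in L skin (log2 fold change 1.70 ± 0.24 SE, adjusted p = 0.000907). Its WT and NL libraries overlapped. *Cdca8*, borealin of the same complex, was at 2.62, 2.85 and 3.78 CPM in WT, 5.49 and 4.59 in NL and 18.5, 15.8, 19.9 and 31.4 in L skin (log2 fold change 2.79 ± 0.27 SE, adjusted p = 0.000203). The other subunits *Birc5*, survivin, and *Aurkb*, its kinase, had log2 fold changes of 3.54 ± 0.36 and 3.24 ± 0.34 (SE), and *Plk1*, which drives mitotic entry, of 3.45 ± 0.41. *Aurka*, the kinase of the spindle poles, rose least of the 6, by 0.95 ± 0.21 (adjusted p = 0.00735).

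In the spindle assembly checkpoint, 4 of 4 genes were called higher. *Mad2l1*, the checkpoint protein that holds Cdc20 inactive, was at 6.34, 7.74 and 7.42 CPM in WT, 9.16 and 7.7 in NL and 24.1, 26.2, 27.1 and 36.1 in L skin (log2 fold change 1.99 ± 0.17 SE, adjusted p = 0.000126). *Bub1b*, BubR1, which joins it in the checkpoint complex, was at 2.62, 2.21 and 4.95 CPM in WT, 5.05 and 4.61 in NL and 16.9, 16.2, 33 and 37.6 in L skin (log2 fold change 2.99 ± 0.42 SE, adjusted p = 0.000969). *Bub1*, the kinase that recruits the checkpoint to kinetochores, was at 0.844, 0.475 and 0.915 CPM in WT, 1.36 and 1.62 in NL and 9.54, 7.3, 13.2 and 18.3 in L skin (log2 fold change 4.02 ± 0.40 SE, adjusted p = 0.000213). In all 3 the L libraries were above every other skin library. *Ttk*, the kinase Mps1 that starts the checkpoint, behaved otherwise in NL skin, where it was at 10.1 and 13.3 CPM against 5.65 to 7.32 in WT and 10.3 to 19.0 in L skin (log2 fold change 1.20 ± 0.22 SE, adjusted p = 0.00304 for L against WT).

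Among the partners of the anaphase-promoting complex and the genes of sister separation, 5 of 5 were called higher. *Cdc20*, which activates the complex at anaphase, was at 3.31, 4.23 and 4.43 CPM in WT, 6.21 and 5.81 in NL and 21.6, 20.3, 36.3 and 45.7 in L skin (log2 fold change 2.96 ± 0.32 SE, adjusted p = 0.000302). *Ube2c*, the ubiquitin-conjugating enzyme that works with it, was at 4.99, 7.53 and 6.63 CPM in WT, 5.94 and 5.81 in NL and 16.7, 15.3, 23.6 and 33 in L skin (log2 fold change 1.79 ± 0.29 SE, adjusted p = 0.0015). *Cdc20* separated the L libraries from the rest with NL above WT, while the NL values of *Ube2c* lay within the WT range. *Ube2c* shares 22.8% of its exon bases with *Tnnc2*, a troponin gene of skeletal muscle on the opposite strand. *Tnnc2* was at 2020 to 2430 CPM in WT, 1730 and 1870 in NL and 0.715 to 624 in L skin, the strand setting of the counting is not given in the sources used here, and its part in the *Ube2c* values was not tested. Securin (*Pttg1*), separase (*Espl1*) and sororin (*Cdca5*) had log2 fold changes of 2.06 ± 0.20, 1.68 ± 0.23 and 2.82 ± 0.34.

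All 10 centromere and kinetochore genes were called higher, with log2 fold changes from 1.94 (*Cenpn*) to 3.07 (*Ska1*). *Cenpa*, the histone H3 variant that marks the centromere, was at 3.38, 5.13 and 6.06 CPM in WT, 4.8 and 5.49 in NL and 29.2, 23.1, 28.6 and 29.3 in L skin (log2 fold change 2.50 ± 0.21 SE, adjusted p = 0.000117). *Cenpf*, a protein of the outer kinetochore, was at 5.43, 5.63 and 9.42 CPM in WT, 6.59 and 8.98 in NL and 25.2, 20.5, 42.2 and 41.8 in L skin (log2 fold change 2.25 ± 0.33 SE, adjusted p = 0.00115). In both, NL values lay within the WT range and L values above it. *Nuf2*, a subunit of the Ndc80 complex that grips microtubules, was at 1.53, 2.21 and 2.42 CPM in WT, 3.34 and 3.04 in NL and 12.3, 12.9, 15.8 and 18.1 in L skin (log2 fold change 2.85 ± 0.23 SE, adjusted p = 9.84e-05). *Knl1*, the scaffold that carries the checkpoint proteins, was at 1.44, 1.59 and 1.78 CPM in WT, 2.05 and 2.8 in NL and 8.74, 8.44, 15.8 and 19 in L skin (log2 fold change 3.02 ± 0.35 SE, adjusted p = 0.000381). For *Nuf2* and *Knl1* the 3 groups followed each other without overlap.

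The 9 spindle motors and microtubule proteins were called higher as well. *Kif11*, the motor Eg5 that pushes the spindle poles apart, was at 2.85, 3.94 and 6.8 CPM in WT, 5.37 and 5.47 in NL and 21.8, 19.1, 41.6 and 51.9 in L skin (log2 fold change 2.89 ± 0.45 SE, adjusted p = 0.00159). *Prc1*, which bundles the microtubules of the central spindle, was at 5.84, 5.06 and 7.02 CPM in WT, 8.52 and 8.54 in NL and 24, 24.6, 36 and 40.4 in L skin (log2 fold change 2.39 ± 0.23 SE, adjusted p = 0.000184). WT and NL libraries overlapped for *Kif11* and not for *Prc1*. The largest change of the group was that of the depolymerising kinesin *Kif2c* (log2 fold change 3.47 ± 0.39 SE) and the smallest that of *Kif4* (1.94 ± 0.25). *Kif20a* shares 29.3% of its exon bases with *Cdc23* and *Kif4* 15.1% with *Pdzd11*, both on the opposite strand.

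The 3 cytokinesis genes were called higher. *Anln*, anillin of the contractile ring, was at 8.12, 10.5 and 15.1 CPM in WT, 14.4 and 18 in NL and 30.9, 27.6, 46.8 and 39.4 in L skin (log2 fold change 1.69 ± 0.26 SE, adjusted p = 0.00122). *Racgap1*, which with the kinesin Kif23 forms the centralspindlin complex, was at 5.27, 4.7 and 5.96 CPM in WT, 6.94 and 7.28 in NL and 19, 18.2, 28.9 and 37 in L skin (log2 fold change 2.28 ± 0.27 SE, adjusted p = 0.00041). *Anln* overlapped between WT and NL skin and *Racgap1* did not. *Ect2*, the exchange factor they recruit, had a log2 fold change of 2.25 ± 0.24 (SE).

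The 6 genes of chromosome structure and the proliferation marker were called higher. *Mki67*, which coats mitotic chromosomes and is the Ki-67 antigen of pathology, was at 11, 11.2 and 18.1 CPM in WT, 21.9 and 20.9 in NL and 69.3, 75.1, 144 and 161 in L skin (log2 fold change 3.06 ± 0.37 SE, adjusted p = 0.00053, 8.37-fold). *Top2a*, the topoisomerase that untangles sister DNA, was at 8.64, 10.5 and 15.1 CPM in WT, 18.1 and 17.1 in NL and 52, 50.9, 124 and 143 in L skin (log2 fold change 3.02 ± 0.45 SE, adjusted p = 0.00132). In both, L libraries 6 and 7 stood far above libraries 4 and 5, which were themselves above all WT and NL libraries. The condensin subunits *Ncapg*, *Ncapd2* and *Smc2* rose by 3.34 ± 0.38, 1.80 ± 0.30 and 1.71 ± 0.26 on the log2 scale.

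**Figure D2:**
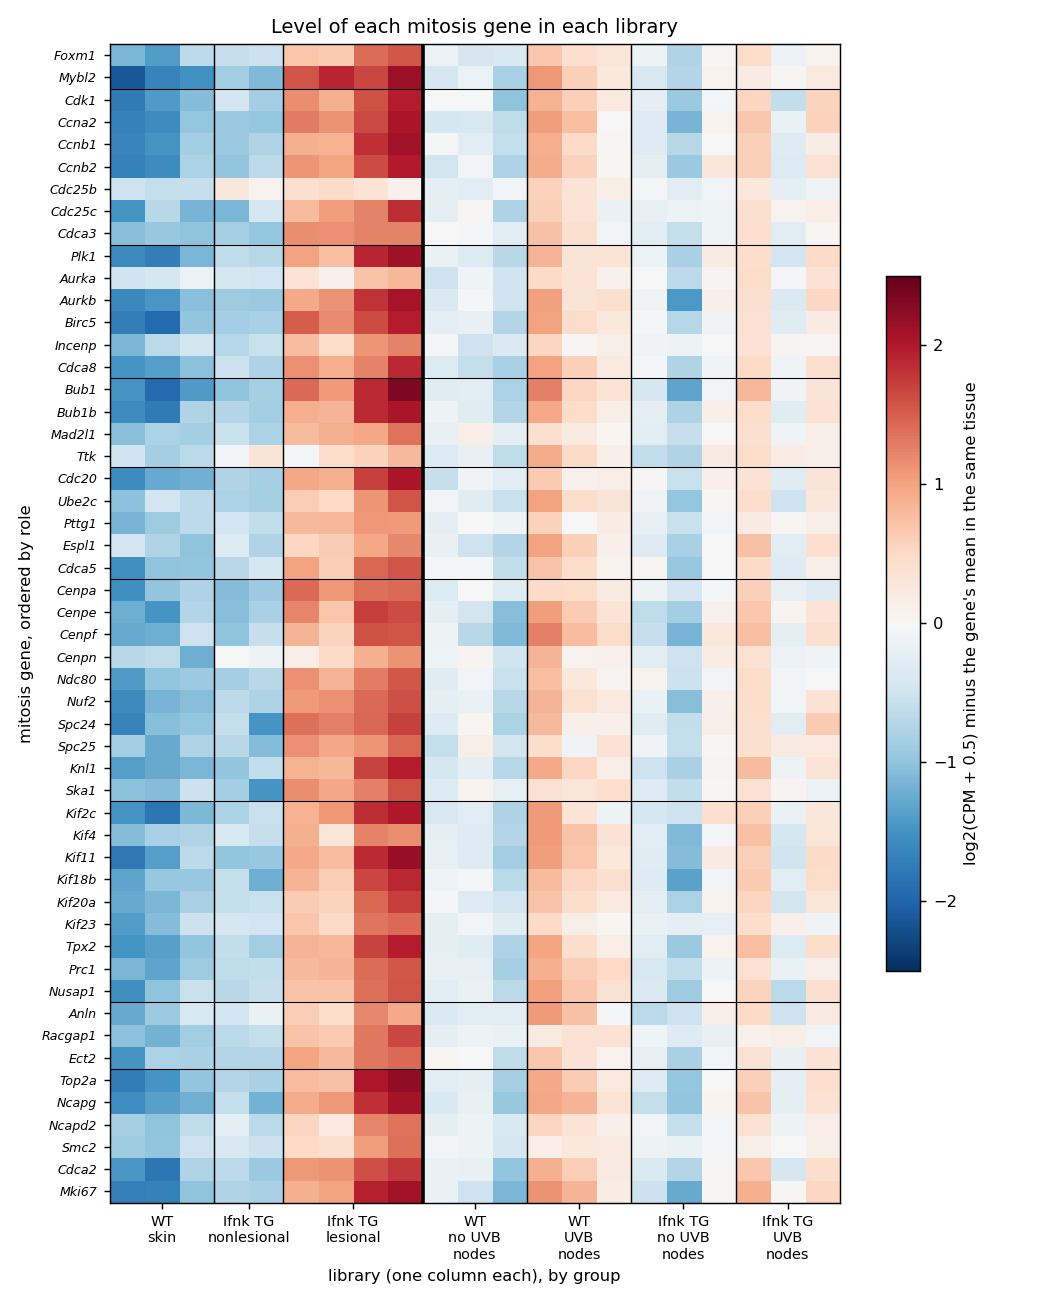
Level of each of the 52 mitosis genes (rows, ordered by role, with lines between roles) in each of the 21 libraries (columns, by group), as log2(CPM + 0.5) minus the gene's mean in the same tissue. The 4 lesional columns are red in nearly every row, most deeply for libraries 6 and 7, and the rows of *Cdc25b* and *Aurka* are among the palest. In nodes most rows are highest in WT library 7.

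Within the transgenic genotype, L skin was called above NL skin in 49 of the 52 genes, where 13.2% of all tested genes were called higher. The median log2 fold change was 2.26 (all tested genes 0.03). In 50 genes every L library was above both NL libraries, against 24.7% of all tested genes. The lowest p were those of *Cdca3* (log2 fold change 2.28 ± 0.16 SE, adjusted p = 0.000354), *Cenpa* (log2 fold change 2.42 ± 0.25 SE, adjusted p = 0.000812) and *Mybl2* (log2 fold change 3.13 ± 0.32 SE, adjusted p = 0.000812). The 3 genes that did not pass were *Cdc25b* (log2 fold change 0.16 ± 0.12 SE, adjusted p = 0.378), *Ttk* (log2 fold change 0.35 ± 0.25 SE, adjusted p = 0.321) and *Cenpn* (log2 fold change 0.90 ± 0.38 SE, adjusted p = 0.114), and the L and NL libraries of *Cdc25b* and *Ttk* overlapped. NL skin has 2 libraries. With either of them left out, fewer of the 52 genes were called than in the full fit. Such a fit rests on a single NL library. The share of all tested genes that it called is not given here.

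NL skin was not called different from WT skin for any of the 52 genes, nor for any of the 19101 tested genes, in edgeR's test. The lowest adjusted p of the set was 0.417. The fitted change was positive in 49 of the 52 genes, with a median of 0.53 (1.44-fold) where the median of all genes was -0.001, and 11 genes had an unadjusted p under 0.05 in that direction, against 5.46% of all tested genes. In 29 genes both NL libraries were above all 3 WT libraries, against 18.6% of all tested genes. The 11 were *Mybl2*, *Cdk1*, *Cdc25b*, *Plk1*, *Birc5*, *Cdca8*, *Bub1*, *Ttk*, *Cenpn*, *Nuf2* and *Kif2c*. DESeq2 called 49 genes higher and 13 lower, among them 1 of the 52, *Cdc25b*, which was at 33.5 and 29.2 CPM in NL and 18.1 to 19.0 in WT skin (adjusted p = 0.0082 in DESeq2). *Cdc25b*, *Cenpn* and *Ttk* are named here after their values were seen.

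In the nodes of WT mice UVB was followed by higher fitted levels of the whole set, and 11 of the 52 genes passed the threshold. Of all tested genes 2.92% were called higher and 2.06% lower. The 52 log2 fold changes were positive and ran from 0.31 (*Mad2l1*) to 1.55 (*Cenpf*), with a median of 0.96 (1.94-fold) where the median of all tested genes was -0.005. Without adjustment 48 of the 52 had a p under 0.05 in that direction, against 14.2% of all tested genes. In 47 genes every UVB library was above every untreated library, against 19.8% of all genes, and the 5 that overlapped were *Cdc25c*, *Cdca3*, *Mad2l1*, *Pttg1* and *Spc25*. Library 7 was the highest of the 3 UVB libraries in 49 of the 52 genes.

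The 11 genes that rose came from 7 of the 9 roles. Both transcription factors were among them. *Foxm1* was at 9.02, 7.31 and 7.52 CPM in WT nodes without UVB and 16.2, 13.6 and 12.4 with UVB (log2 fold change 0.82 ± 0.21 SE, adjusted p = 0.0457), and *Mybl2* at 3.02, 3.73 and 2.18 CPM in WT nodes without UVB and 9.4, 6.58 and 5.15 with UVB (log2 fold change 1.24 ± 0.28 SE, adjusted p = 0.034). *Cdc25b*, the most abundant of the set per kilobase in nodes, was at 49.4, 48 and 56.3 CPM in WT nodes without UVB and 87.6, 73.7 and 65.6 with UVB (log2 fold change 0.56 ± 0.13 SE, adjusted p = 0.0371). For these 3 genes the groups did not overlap.

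Of the passenger complex, *Incenp* was at 30.4, 21.9 and 24.4 CPM in WT nodes without UVB and 45.8, 32.2 and 34.8 with UVB (log2 fold change 0.56 ± 0.15 SE, adjusted p = 0.0488) and *Cdca8* at 5.01, 4.11 and 3.47 CPM in WT nodes without UVB and 13.6, 10.1 and 7.66 with UVB (log2 fold change 1.31 ± 0.27 SE, adjusted p = 0.0266). *Birc5* had a log2 fold change of 1.08 ± 0.28 (adjusted p = 0.0457). The groups of *Cdca8* stood well apart, whereas the lowest *Incenp* value after UVB lay close to the highest without it. The lowest p of the set were those of *Racgap1*, at 48.9, 52.1 and 50.7 CPM in WT nodes without UVB and 66.6, 74 and 73.9 with UVB (log2 fold change 0.50 ± 0.088 SE, adjusted p = 0.0218), and *Prc1*, at 7.85, 7.87 and 4.91 CPM in WT nodes without UVB and 17.4, 14.3 and 13.1 with UVB (log2 fold change 1.12 ± 0.21 SE, adjusted p = 0.0234). *Racgap1* changed little, 1.41-fold, and its libraries were close together within each group. The other genes that passed were the kinetochore motor *Cenpe* (1.32 ± 0.30, adjusted p = 0.0365), *Ncapg* (1.29 ± 0.33, adjusted p = 0.0451) and *Smc2* (0.43 ± 0.10, adjusted p = 0.0325), given as log2 fold change with SE.

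Several of the largest fitted changes did not pass in WT nodes. *Mki67* was at 48.4, 37.9 and 24.1 CPM in WT nodes without UVB and 118, 97.3 and 62 with UVB (log2 fold change 1.33 ± 0.40 SE, adjusted p = 0.081). *Bub1* was at 3.23, 3.29 and 2.15 CPM in WT nodes without UVB and 10.6, 6.07 and 5.36 with UVB (log2 fold change 1.34 ± 0.38 SE, adjusted p = 0.0608). *Cenpf* was at 5.64, 3.67 and 2.64 CPM in WT nodes without UVB and 15.5, 10.9 and 8.7 with UVB (log2 fold change 1.55 ± 0.42 SE, adjusted p = 0.0568). In these 3 the groups were separate, but UVB library 7 lay far above library 9. *Top2a* was at 50.2, 51.7 and 33.7 CPM in WT nodes without UVB and 117, 94.3 and 71.3 with UVB (adjusted p = 0.0702). *Ccna2* was at 11.1, 11.5 and 9.7 CPM in WT nodes without UVB and 32, 26 and 15.3 with UVB (adjusted p = 0.0736), and *Kif11* at 12.6, 11.5 and 7.71 CPM in WT nodes without UVB and 30.7, 23.8 and 17.6 with UVB (adjusted p = 0.0914). They follow the same order of libraries, 7 above 8 above 9. *Cdc20* was at 7.3, 10.4 and 9.15 CPM in WT nodes without UVB and 17.9, 12 and 12.5 with UVB (adjusted p = 0.11), *Cenpa* at 16.8, 21.7 and 17.4 CPM in WT nodes without UVB and 30.3, 29.9 and 25.2 with UVB (adjusted p = 0.104) and *Anln* at 1.78, 1.91 and 1.93 CPM in WT nodes without UVB and 5.68, 4.36 and 2.39 with UVB (adjusted p = 0.0859). The UVB and untreated libraries of *Cdc20*, *Cenpa* and *Anln* were separate. *Bub1b* was at 10.2, 8.97 and 6.54 CPM in WT nodes without UVB and 22.2, 15.6 and 12.6 with UVB (adjusted p = 0.0723). *Ube2c* was at 4.5, 3.76 and 3.07 CPM in WT nodes without UVB and 10.1, 6.65 and 6.13 with UVB (adjusted p = 0.0838). *Nuf2* was at 4.5, 4.8 and 3.16 CPM in WT nodes without UVB and 10.2, 7.2 and 6.56 with UVB (adjusted p = 0.083). These 3 and the scaffold *Knl1*, at 5.61, 6.59 and 4.51 CPM in WT nodes without UVB and 15.5, 11.3 and 8.73 with UVB (adjusted p = 0.0536), did not overlap between the groups. The weakest change was that of *Mad2l1*, at 21.4, 27.2 and 20.8 CPM in WT nodes without UVB and 32.3, 28.5 and 25 with UVB (log2 fold change 0.31 ± 0.17 SE, adjusted p = 0.265), with overlapping groups, and *Cdca3*, the gene with the lowest p in L skin, was at 3.71, 3.58 and 2.95 CPM in WT nodes without UVB and 6.46, 5.02 and 3.49 with UVB, with overlapping groups as well (log2 fold change 0.55 ± 0.27 SE, adjusted p = 0.213).

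The count of calls in WT nodes depended on the fit. DESeq2 called 37 of the 52 and edgeR on the 6 WT libraries alone called 39, in each case with the 11 among them. The 2.92% of all tested genes called higher belongs to the main fit. The shares called in the other fits are not given here, so their counts have no background beside them. With a single WT library left out between 0 and 5 were called: 5, 2 and 0 without untreated library 1, 2 or 3, and 3, 0 and 0 without UVB library 7, 8 or 9.

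In Ifnk TG nodes none of the 52 genes passed the threshold with UVB, and neither did any of the 16173 tested genes in edgeR's test. DESeq2 called none of the 52 and, of all genes, 70 higher and 64 lower. The fitted changes of the 52 were again positive, from 0.12 (*Cdc25b*) to 1.04 (*Bub1*), with a median of 0.55 (1.46-fold) against 0.02 over all tested genes. Without adjustment 17 had a p under 0.05 in that direction in edgeR's test, against 4.90% of all tested genes. With DESeq2 the count was 23, and its share of all genes is not given here. In 7 genes the groups did not overlap, against 6.23% of all genes. The 95% interval of the log2 fold change included 0 in 35 of the 52 genes, where it did so in 4 of 52 in WT nodes. UVB library 11 was the lowest of its group in 46 genes and untreated library 5 the lowest of its group in 50.

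Values in TG nodes show this spread. *Racgap1*, with the lowest p, was at 53.2, 45.6 and 50.5 CPM in TG nodes without UVB and 61.8, 63.6 and 54.5 with UVB (log2 fold change 0.27 ± 0.088 SE, adjusted p = 0.376). *Knl1* was at 5.27, 4.23 and 8.1 CPM in TG nodes without UVB and 13.7, 7.07 and 9.97 with UVB (0.81 ± 0.29, adjusted p = 0.428). *Bub1* was at 2.95, 1.36 and 3.89 CPM in TG nodes without UVB and 7.65, 3.86 and 5.29 with UVB (1.04 ± 0.38, adjusted p = 0.435). *Racgap1* separated the groups by a narrow margin, while *Knl1* and *Bub1* overlapped through untreated library 6. *Mki67* was at 37.2, 22.2 and 55.6 CPM in TG nodes without UVB and 101, 55.1 and 77.6 with UVB, *Foxm1* at 9.08, 5.76 and 10.2 CPM in TG nodes without UVB and 14, 8.91 and 10.6 with UVB and *Mybl2* at 3.05, 2.33 and 4.47 CPM in TG nodes without UVB and 4.91, 4.28 and 5.05 with UVB. In each of them the highest untreated library was above the lowest UVB library. The other members named above spread in a similar way. *Cdc20* was at 11.4, 7.41 and 12.2 CPM in TG nodes without UVB and 14.5, 8.91 and 14.1 with UVB. *Ube2c* was at 4.46, 2.21 and 4.9 CPM in TG nodes without UVB and 6.63, 3.17 and 5.94 with UVB. Both overlapped, library 11 lying among the untreated values. *Ccna2* was at 12.2, 6.58 and 16.2 CPM in TG nodes without UVB and 24.8, 13.5 and 23.1 with UVB. *Cdca3* was at 3, 2.27 and 3.37 CPM in TG nodes without UVB and 5.12, 2.92 and 3.82 with UVB. *Incenp* was at 29.5, 28.8 and 31.9 CPM in TG nodes without UVB and 40.7, 33.1 and 32.2 with UVB. Of these 3 *Incenp* alone was separate, by a narrow margin. *Cdca8* was at 6.24, 3.63 and 6.11 CPM in TG nodes without UVB and 9.31, 5.99 and 8.84 with UVB. *Mad2l1* was at 20, 16.1 and 24.2 CPM in TG nodes without UVB and 32.2, 22.4 and 26.8 with UVB. *Bub1b* was at 9.41, 6.33 and 12.4 CPM in TG nodes without UVB and 15.6, 8.98 and 14.5 with UVB. All 3 overlapped. *Cenpf* was at 4.03, 2.5 and 7.55 CPM in TG nodes without UVB and 10.8, 5.26 and 8.35 with UVB. *Nuf2* was at 4.81, 2.33 and 5.97 CPM in TG nodes without UVB and 7.56, 5.12 and 7.1 with UVB. *Kif11* was at 11.7, 6.58 and 16.8 CPM in TG nodes without UVB and 22.4, 10.2 and 20.4 with UVB. The highest untreated library was again number 6. *Prc1* was at 6.78, 5.82 and 8.27 CPM in TG nodes without UVB and 12, 8.11 and 10.2 with UVB. *Anln* was at 1.35, 1.56 and 2.77 CPM in TG nodes without UVB and 3.63, 1.57 and 2.94 with UVB. *Top2a* was at 48.1, 30.6 and 59.5 CPM in TG nodes without UVB and 91.2, 50.8 and 80.9 with UVB. Libraries 11 and 6 crossed in each. *Cdc25b* was at 57.5, 48.6 and 55.8 CPM in TG nodes without UVB and 70.6, 50.6 and 54.4 with UVB and *Cenpa* at 19.7, 15.9 and 21 CPM in TG nodes without UVB and 32.6, 18.6 and 17 with UVB, and both fitted changes turned negative, to -0.035 and -0.082, when UVB library 10 was left out.

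**Figure D3:**
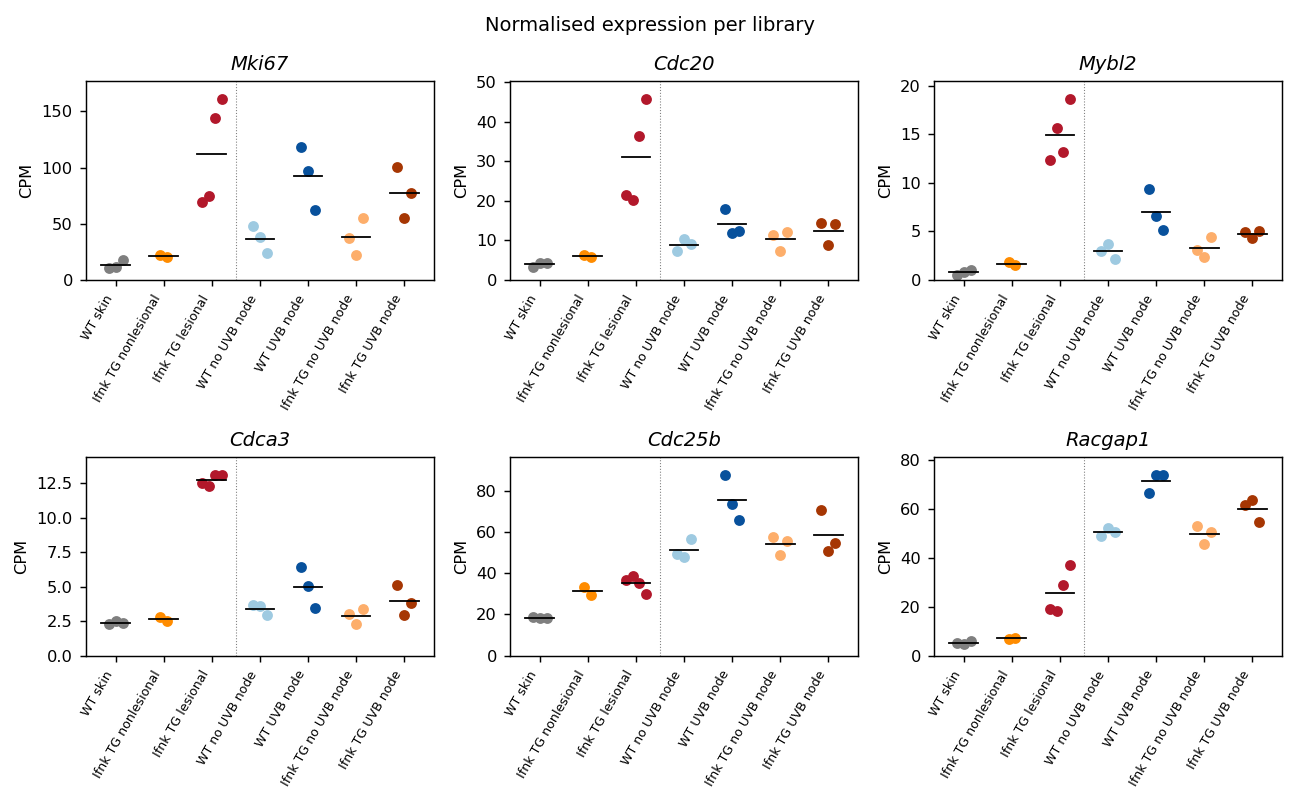
Normalised expression (vertical axis, CPM) of *Mki67*, *Cdc20*, *Mybl2*, *Cdca3*, *Cdc25b* and *Racgap1* in each library, by group, with skin left of the dotted line and nodes right of it. Points are libraries and bars group means. *Cdca3* in lesional skin lies between 12.3 and 13.1 CPM, far above the rest, while *Cdc25b* and *Racgap1* are highest in WT nodes after UVB.

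The test of the difference between genotypes called none of the 52 genes, nor any of the 16173 tested genes in edgeR's test. The fitted UVB change was larger in WT than in TG nodes for 49 of the 52, with a median difference of -0.36 on the log2 scale (TG minus WT) against 0.01 over all tested genes. The lowest adjusted p was 0.848, and 1 gene, *Cdc25b*, had an unadjusted p under 0.05 in that direction, against 2.44% of all tested genes. The difference was -0.44 ± 0.19 for *Cdc25b* with a 95% interval of -0.85 to -0.04. It was -0.72 ± 0.37 for *Cdca8* and -0.58 ± 0.30 for *Prc1*. For *Mki67*, with a UVB change of 1.33 in WT and 1.02 in TG nodes, the interval of the difference ran from -1.54 to 0.94, wider than either change. DESeq2 called none of the 52 for the difference.

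Genotype alone was not called either, for the 52 genes or for any of the 16173 tested genes in edgeR's test. Without UVB, TG and WT nodes differed by a median of 0.07 over the 52 genes, with no gene at an unadjusted p under 0.05 and no gene called by edgeR or DESeq2. This median turned negative when TG library 6 or WT library 3 was left out (-0.18 and -0.06). After UVB, the fitted levels were lower in TG than in WT nodes for 51 of the 52 genes, with a median of -0.32 against 0.01 over all tested genes. None was called, the lowest adjusted p was 0.673 in edgeR and 0.480 in DESeq2, and 3 genes, *Racgap1*, *Cdc25b* and *Prc1*, had an unadjusted p under 0.05, against 2.85% of all tested genes. After UVB 51.2% of all tested genes had a positive difference. Both comparisons share libraries with those of UVB above, and the 52 genes are not independent of each other.

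**Figure D4:**
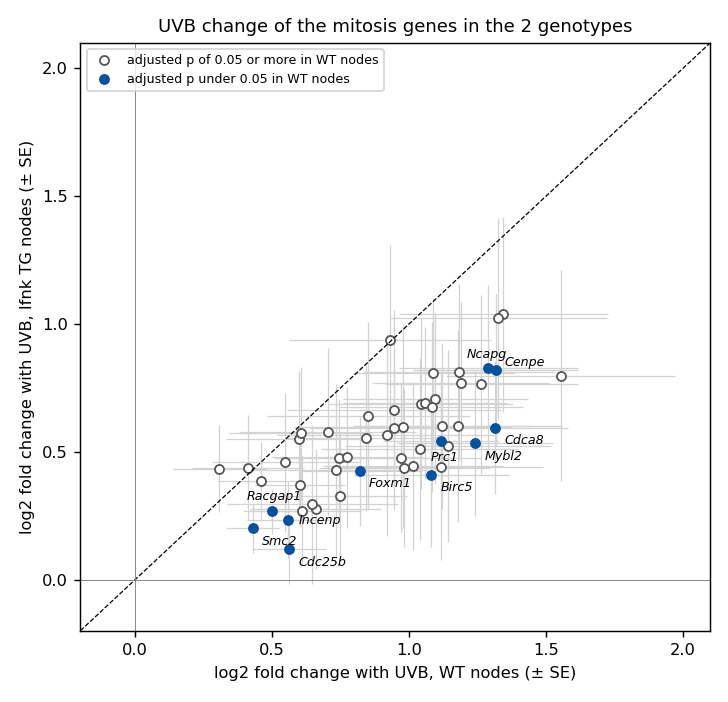
UVB change of each of the 52 mitosis genes in WT nodes (horizontal axis, log2 fold change ± SE) and in Ifnk TG nodes (vertical axis, same unit). Filled points are the 11 genes called in WT nodes and the dashed line marks equal change. Below it lie 49 of the 52 points, which are not independent, and no gene's difference passed the threshold.

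The change in L skin was larger than the UVB change in nodes. In a single fit of the 21 libraries, the L minus WT difference in skin exceeded the UVB difference in WT nodes in all 52 genes as fitted, and in 42 of them with an adjusted p under 0.05, where 12.5% of the 20419 genes tested in that fit were called in that direction. The median difference was 1.74 on the log2 scale. Against TG nodes 45 genes passed, where 10.9% of all tested genes did, with a median of 2.03. The 2 changes differ in tissue and in treatment. The skin change also sets Ifnk TG against WT, while each node change lies within a genotype. Tissue, treatment and genotype cannot be told apart in this comparison. The age of the mice that gave the nodes is not stated in the labels. The difference in *Mybl2* was 2.95 ± 0.42 against WT nodes (adjusted p = 0.000102). In *Racgap1* it was 1.74 ± 0.27 (adjusted p = 0.000185).

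The 10 genes that did not pass against WT nodes were *Cdc25b*, *Aurka*, *Ttk*, *Ube2c*, *Espl1*, *Cenpf*, *Cenpn*, *Kif4*, *Nusap1* and *Anln*. For *Ttk* the changes in L skin and in WT nodes were nearly the same size, 1.20 ± 0.22 and 1.10 ± 0.34. *Aurka* had 0.95 ± 0.21 and 0.74 ± 0.23, and *Cdc25b* 0.92 ± 0.11 and 0.56 ± 0.13. Against TG nodes *Aurka*, *Ttk*, *Ube2c*, *Espl1*, *Cenpf*, *Kif4* and *Anln* did not pass. Across the 52 genes the sizes of the L skin change and the UVB change in WT nodes had a Spearman correlation of 0.39 (0.35 with TG nodes). The changes in WT and TG nodes had one of 0.74. These are descriptions across genes, which are not independent, and the node values share a fit.

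**Figure D5:**
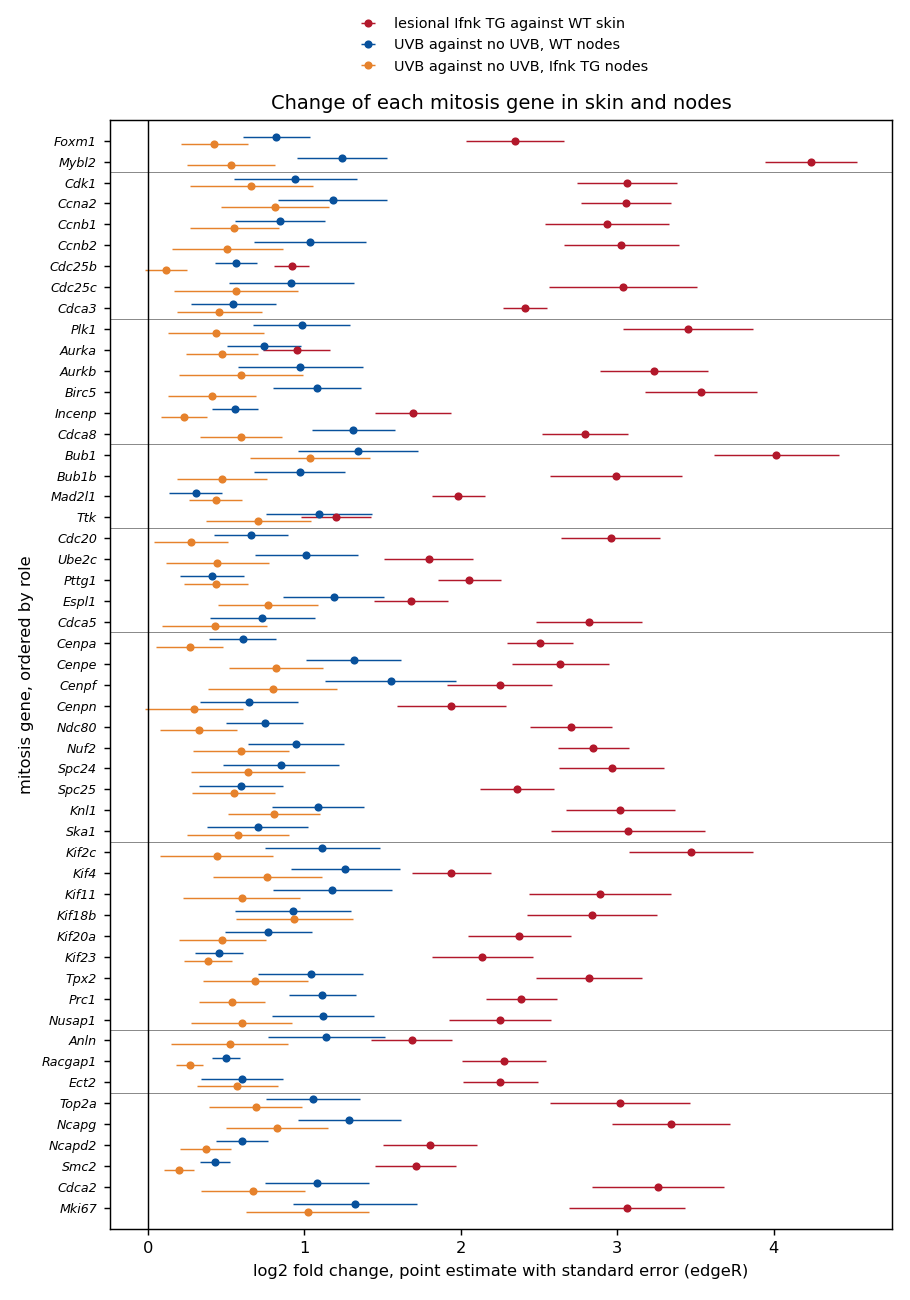
Log2 fold change with standard error (horizontal axis) of each of the 52 mitosis genes (rows, ordered by role) for lesional against WT skin and for UVB against no UVB in WT and in Ifnk TG nodes. Points lie right of 0 in every row. The skin points run from 0.92 to 4.24, those of WT nodes from 0.31 to 1.55 and those of TG nodes from 0.12 to 1.04.

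Other genes of the cell cycle are described here beside the 52. Their lists were written with earlier results of these data known, so the counts cannot measure how far the change spread. Of all 19101 tested genes 23.0% were called higher and 20.2% lower in L than in WT skin. Of 54 further mitosis genes 51 were called higher in L than in WT skin and 0 lower, with a median log2 fold change of 2.15. They include *Depdc1a* (log2 fold change 3.55 ± 0.22 SE, adjusted p = 4.92e-05) and *Ccnf*, cyclin F (log2 fold change 2.11 ± 0.15 SE, adjusted p = 6.7e-05). Of 38 genes of S phase and DNA replication 35 were called higher and 0 lower, with a smaller median of 1.24. The 2 with the lowest p were *Rfc5*, a subunit of the clamp loader (log2 fold change 1.24 ± 0.12 SE, adjusted p = 0.000203), and *Tk1*, thymidine kinase (log2 fold change 2.52 ± 0.26 SE, adjusted p = 0.00023).

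Genes of the G1 phase and constant parts of the machinery moved less uniformly. Their counts are to be read beside the 23.0% of all tested genes called higher and the 20.2% called lower. A list near these shares did not stand out. Of 19 G1 cyclins, kinases and E2F factors 10 were called higher and 3 lower in L skin (median 0.69). The activator *E2f2* rose (log2 fold change 2.13 ± 0.16 SE, adjusted p = 7.54e-05) and the repressor *E2f6* fell (log2 fold change -1.75 ± 0.19 SE, adjusted p = 0.000307). Of 10 Cdk inhibitors and pocket proteins 3 were called higher and 3 lower, among them *Cdkn1a*, p21 (log2 fold change 0.77 ± 0.10 SE, adjusted p = 0.000733), and *Rbl2*, the pocket protein p130 of resting cells (log2 fold change -0.75 ± 0.091 SE, adjusted p = 0.000464). Of 25 subunits of the anaphase-promoting complex, cohesin and phosphatases, whose transcripts are present through the cycle, 5 were called higher and 2 lower, with a median of 0.05. *Anapc5* fell (log2 fold change -1.02 ± 0.15 SE, adjusted p = 0.00122) and *Cdc26* rose slightly (log2 fold change 0.47 ± 0.082 SE, adjusted p = 0.00225).

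In WT nodes after UVB, 6 of the 54 further mitosis genes were called higher (median 0.78), 1 of the 38 S phase genes (median 0.25), 2 of the 19 G1 genes (median 0.27), 1 of the 10 inhibitors (median -0.09) and none of the 25 constant subunits (median -0.03), and none in these lists was called lower. Of all tested genes 2.92% were called higher and 2.06% lower, and the S phase list lay near the first share. *Cks2*, which docks Cdk1 to its substrates (log2 fold change 1.32 ± 0.24 SE, adjusted p = 0.022), and the kinesin *Kif22* (log2 fold change 0.99 ± 0.22 SE, adjusted p = 0.0319) were the first of the mitosis list. *Tyms*, thymidylate synthase, rose (log2 fold change 0.94 ± 0.20 SE, adjusted p = 0.0306) and *Tk1* did not pass (log2 fold change 0.70 ± 0.20 SE, adjusted p = 0.0568). The repressors *E2f8* and *E2f7* rose (log2 fold change 1.53 ± 0.32 SE, adjusted p = 0.0303 and log2 fold change 1.46 ± 0.36 SE, adjusted p = 0.0414), and so did *Cdkn1b*, the inhibitor p27 (log2 fold change 0.78 ± 0.13 SE, adjusted p = 0.0177), while *Cdkn2d*, p19, did not pass (log2 fold change -0.33 ± 0.11 SE, adjusted p = 0.0821). Of the constant subunits the lowest p were those of *Anapc16* (log2 fold change 0.33 ± 0.091 SE, adjusted p = 0.0536) and *Anapc4* (log2 fold change -0.29 ± 0.086 SE, adjusted p = 0.0648), neither past the threshold. In TG nodes no gene of these 5 lists was called, with medians of 0.41, 0.23, 0.17, -0.04 and -0.002 in the same order.

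Cell type markers moved in the same skin libraries as the mitosis genes. In L against WT skin 23.0% of all tested genes were called higher and 20.2% lower. Of 13 genes of the hair matrix and shaft 13 were called higher in L than in WT skin, with a median log2 fold change of 9.72, that of the hair protein *Tchh*. *Krt34*, with no count in WT skin, stays above that median also when each WT library is given 3 counts. Their summed level was 19.8 to 28.3 CPM in WT, 37.4 and 45.9 in NL and 3870, 8560, 8540 and 11500 in L libraries 4 to 7, and 8 of the 13 averaged under 1 CPM in WT and in NL skin. Wound and stress keratins were called higher in 4 of 4, at 469 to 749 CPM summed in WT, 1210 and 1240 in NL and 3890, 3650, 5380 and 1760 in L. Basal keratinocyte markers, which define the labelled tissue, were present at 5580 to 6900 CPM in WT, 10400 and 10600 in NL and 10300, 9750, 8460 and 4110 in L, with 1 of 7 called higher and 1 lower. L library 7, the highest in the mitosis set, was also the highest in hair genes and the lowest in basal and wound keratins. Among the other L libraries the orders differed. Library 5 was the lowest in the mitosis set, whereas library 4 was the lowest in hair genes. Skeletal muscle markers summed to 29900 to 41300 CPM in WT, 27800 and 32700 in NL and 7850, 27.3, 407 and 1660 in L (4 of 10 called lower). The part of these cells in the mitosis result was not tested. With keratin, hair, muscle and adipocyte genes left out of library sizes and scaling, 52 genes were again called against WT and 49 against NL skin. That setting changes the scaling alone and leaves the mix of cells in a library as it was, so it cannot test their part.

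Of the other lists in L against WT skin, adipocyte markers were called lower in 4 of 8 (median -1.92), T cell markers higher in 5 of 8 (1.42), neutrophil markers higher in 3 of 5 (3.09), plasma cell markers higher in 3 and lower in 1 of 7 (1.38), and spinous and granular keratinocyte markers higher in 2 of 7 (0.48). Erythroid markers were called higher in 2 of 7 (0.35), B cell markers in 1 of 6 (-0.01), fibroblast markers lower in 1 of 6 (-0.38), macrophage markers in 0 of 6 (-0.40) and germinal centre markers lower in 2 of 8 (-0.08). The numbers in brackets are median log2 fold changes over the list. Beside the 23.0% of all tested genes called higher and 20.2% called lower, the spinous, erythroid, B cell, fibroblast and germinal centre counts did not stand out.

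In nodes, T cell and B cell markers were abundant, at 2500 to 3190 and 1230 to 2410 CPM summed. Germinal centre B cells are a dividing population of nodes. Their 9 markers summed to 87.8, 98.7 and 102 CPM in untreated WT nodes and 201, 137 and 145 after UVB, and to 106, 83.5 and 143 in untreated TG nodes and 189, 114 and 137 after UVB. None was called by edgeR (median log2 fold change 1.67 in WT and 0.53 in TG nodes). Libraries 7 and 10, the highest of their UVB groups in the mitosis set, and untreated TG library 6 were also the highest of their groups in these markers, and libraries 5 and 11 the lowest of theirs, whereas in untreated WT nodes the order differed. Erythroid markers moved the other way, from 122 to 265 CPM to 10.9 to 39.5 in WT (4 of 6 called lower, median -2.99) and from 263 to 304 to 26.2 to 160 in TG nodes (0 of 6 called, median -1.52). Of the other lists in WT nodes 2 of 8 T cell, 1 of 6 fibroblast and 1 of 2 tested adipocyte markers were called lower and none higher. Among all tested genes 2.06% were called lower in WT nodes. The part of these cells in the UVB result was not tested.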

How the data were processed

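The authors deposited RSEM gene counts, expected counts deposited as whole numbers, in 1 table for skin and 1 for nodes. By the submitters' processing notes, reads were trimmed with cutadapt 4.8, checked with FastQC 0.11.8 and MultiQC 1.20, aligned with STAR 2.7.8a and counted with RSEM 1.3.3 on GRCm38. The annotation release and the strand setting are not given in the sources used here, and no molecular identifiers are described. From these counts differences were tested with edgeR 4.0.16 (R 4.3.3, limma 3.58.1): filterByExpr (minimum count 10, total 15), TMM scaling, robust quasi-likelihood fits, and Benjamini-Hochberg adjustment over all tested genes, with 0.05 as threshold. All libraries of a tissue entered 1 fit, and all 21 libraries the comparison across tissues. The SE is the log2 fold change divided by the root of F, and intervals are at 95%. CPM are counts relative to the TMM-scaled library size, as edgeR scales them, and 0.5 was added before logs.

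The 52 genes, their roles and the other gene lists were chosen with earlier results of these data known. Libraries are printed for the 2 most abundant genes of each role and the 3 with the lowest p in each main comparison. Positions and exon lengths are from GENCODE M21. DESeq2 1.42.0, RLE scaling, no filter, the compared groups alone, composition genes left out (keratin, hair, muscle and adipocyte genes in skin, haemoglobin, immunoglobulin and keratin genes in nodes), scaling within each tissue, pseudocounts of 0.05 and 2, and leaving out each library were the alternatives. The 4 reporter rows (Cre and fluorescent proteins) held 0 counts and were left out. Replicates of a group differed by more than sampling noise in every pair. The fits were tested on simulated data. Python 3.11.15, pandas 2.3.3 and matplotlib 3.10.9 drew the figures. The intervals printed here are those of log2 fold changes in the quasi-likelihood fits, which take in the spread between libraries.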

Additional observations from a re-analysis of the deposited data

Results flagged for a closer look

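Dixon's test (gap over range above its 95% critical value) asked whether the lowest or highest of the 4 lesional skin libraries lay apart from the others. It was run on the mean level of the set, on the 22 mitosis genes picked for printing and on the gene lists. It flagged 1 of these 22 genes and 3 cell type lists. The other mitosis genes were not tested in this way. Among 42 values tested, chance alone gives about 1 in 20. *Cenpa* had a ratio of 0.898, library 5 being at 23.1 CPM and the others at 28.6 to 29.3. The adipocyte markers had a ratio of 0.908, with library 5 lowest at 832 CPM summed and the others at 3900 to 4340. The neutrophil markers had a ratio of 0.952, with library 4 highest at 572 CPM and the others at 63.3 to 141. The fibroblast markers had a ratio of 0.857, with library 7 highest at 7670 CPM and the others at 3030 to 4320. The library lowest in *Cenpa* and in adipocyte markers is the same, library 5.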

How the results depend on the processing

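All 624 alternative values of the L against WT skin changes of the 52 genes kept their direction and their side of the threshold, and of the 1644 alternative values of those genes whose change the text prints in a comparison 1536 did. In that tally 59 values lost and 28 gained significance in WT nodes, 14 gained it across tissues, and 7 turned negative, 5 across tissues and 2 in TG nodes (below). It leaves out genes not printed for a comparison, whose lost and gained calls enter the counts that follow. Across tissues, the count of 42 against WT nodes was 39 with no filter, 40 with RLE scaling and 43 with DESeq2. The UVB count of 11 in WT nodes became 37 with DESeq2 and 39 with the compared groups alone. The shares of all tested genes called in those fits are not given here. The NL against WT count of 0 became 1 with DESeq2. The mean level of the set in NL skin, -0.69, became -0.74 with a pseudocount of 0.05 and -0.60 with 2. The cause of these shifts was not tested.

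With 1 library left out, the counts of genes called were 52 to 52 for L against WT skin, 24 to 49 for L against NL, 0 to 5 for UVB in WT nodes, 36 to 44 and 42 to 48 for L skin against the UVB change in WT and in TG nodes, and 0 to 0 for NL against WT, UVB in TG nodes, the genotype difference in the UVB change, and genotype without and after UVB. The medians were 2.56 to 2.92, 2.10 to 2.36, 0.72 to 1.09, 1.59 to 2.00 and 1.87 to 2.28 for the first 5, and 0.39 to 0.69, 0.35 to 0.73, -0.58 to -0.13, -0.18 to 0.27 and -0.49 to -0.11 for the others in the order given. Genotype without UVB turned negative without TG library 6 (-0.18) or WT library 3 (-0.06). The UVB change in TG nodes was -0.035 to 0.205 for *Cdc25b* and -0.082 to 0.422 for *Cenpa*, negative without UVB library 10 and positive in the other 5 fits. The skin minus WT node difference was -0.002 for *Aurka* without untreated WT node library 2, and for *Ttk* it ran from -0.125 to 0.427, being -0.073 without that library, -0.125 without WT UVB library 9, -0.061 without L library 7 and -0.032 without WT skin library 9.

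No paired analysis was possible because replicate numbers are unique within a tissue, so that the groups compared share none, and skin and node numbers are separate series. With 3 libraries per node group, the 95% interval of the UVB change in TG nodes included 0 for 35 of the 52 genes and that of the genotype difference for 51. Whether reads of overlapping genes and pseudogenes enter these counts could not be settled without the strand setting.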
